A study of Drosophila melanogaster with 2 samples.

Results

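Aminoacyl-tRNA synthetases are the enzymes that load each amino acid onto its own tRNA. Their genes were taken from the Ensembl annotation of the fly by symbol, as 1 or 2 three-letter amino acid names followed by RS, with or without the suffix -m. This gave 33 of 13968 protein-coding genes. Of these, 18 have no suffix and are called cytosolic here, and 15 end in -m and are called mitochondrial. Enzymes that serve both compartments from 1 gene stay with the symbols that have no suffix. The question was which of these genes had a peak of the tagged protein CG9215 at a start site, and whether cytosolic and mitochondrial enzymes differed.

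The experiment was chromatin immunoprecipitation with sequencing of whole Drosophila melanogaster embryos aged 0-24 h. All material came from the transgenic strain CG9215-GFP, in which CG9215 is fused to eGFP, and the fusion was pulled down with an anti-GFP antibody. The labels class the assay as a transcription factor ChIP-seq and number the libraries as biological replicates 1 and 2. There is no second condition, and no control library was analysed here. Each peak is that of a tagged transgene product averaged over all cell types and stages of the embryo, so that binding in fewer cells and weaker binding per cell cannot be told apart.

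In eukaryotes, protein synthesis in the cytosol and in mitochondria uses separate sets of tRNAs, and nuclear genes encode the enzymes that charge both. Some enzymes have a gene for each compartment, while others serve both from a single gene. GluProRS joins 2 enzymes in 1 chain, and in mammals it sits with several other cytosolic synthetases in a large complex held together by the AIMP scaffold proteins. Cells short of amino acids raise the transcription of many synthetase genes through the factor ATF4, called crc in flies.

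The deposited data are peak lists. Ranked lists hold peaks down to very low signal, and thresholded lists keep those that recurred at the authors' threshold. The conservative thresholded list, which was read as the comparison of both replicates, holds 3718 peaks. A promoter peak was a peak whose summit lay within 500 bp of any annotated start site of a gene. On that list 8 of 33 synthetase genes had a promoter peak, or 24.2% (95% Wilson interval 12.8 to 41.0%), against 17.3% of all protein-coding genes. The cytosolic members with a peak were GluProRS, ThrRS, SerRS, IleRS and AspRS. The mitochondrial members were ArgRS-m, ProRS-m and CysRS-m. The share of all genes lay inside the interval of the members, which covers the sampling of genes only.

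The sequences around the summits are shown first because 4 of the 5 printed here share a feature that the choice of genes did not use, which is a run of A and T. Each sequence is the 101 bp centred on the summit, read from Release 6 of the genome, which is dm6, on the strand of the synthetase gene. None of the 5 windows overlaps an annotated exon. Capitals mark every run of 8 or more bases made only of A and T. The GluProRS window is chr3R:23958475-23958575 on the minus strand, that of ThrRS is chr2L:12103404-12103504 on the plus strand, and that of IleRS is chr3L:22288448-22288548 on the plus strand. The ArgRS-m window is chr3R:7886847-7886947 on the plus strand, and that of ProRS-m is chr3L:2651964-2652064 on the minus strand.
GluProRS: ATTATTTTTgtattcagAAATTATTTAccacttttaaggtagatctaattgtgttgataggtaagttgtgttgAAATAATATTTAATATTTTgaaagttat
ThrRS: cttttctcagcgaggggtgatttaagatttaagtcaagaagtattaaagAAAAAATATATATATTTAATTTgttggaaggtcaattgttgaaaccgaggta
IleRS: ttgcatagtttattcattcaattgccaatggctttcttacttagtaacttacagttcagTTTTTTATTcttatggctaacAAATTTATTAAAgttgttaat
ArgRS-m: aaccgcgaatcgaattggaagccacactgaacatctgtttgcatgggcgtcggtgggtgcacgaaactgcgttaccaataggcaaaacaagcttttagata
ProRS-m: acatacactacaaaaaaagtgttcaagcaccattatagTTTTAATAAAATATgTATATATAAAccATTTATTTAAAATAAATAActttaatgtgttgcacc

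The printed windows differed in their A+T content. The GluProRS window was 79.2% A+T, with a longest run of 19 bp, and the ProRS-m window was 78.2% with a longest run of 19 bp. The windows of IleRS and ThrRS held 74.3% and 70.3% A+T, and the longest run among these windows, 22 bp, lay in the ThrRS window and spanned the summit. The ArgRS-m window stood apart, with 52.5% A+T and no run longer than 5 bp. Over all 8 members with a peak, the median was 72.8% A+T, against 67.3% over the 1936 conservative peaks at any promoter. It was 50.5% over 15328 ranked promoter peaks that overlap no peak of a thresholded list. A run of 8 bp or more was found in 7 of 8 member windows, in 75.8% of conservative promoter windows and in 32.4% of the ranked windows outside the thresholded lists. The high A+T content of the member windows was therefore shared with the conservative promoter peaks as a class, and 7 of 8 members were above the median of that class.

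**Figure D1:**
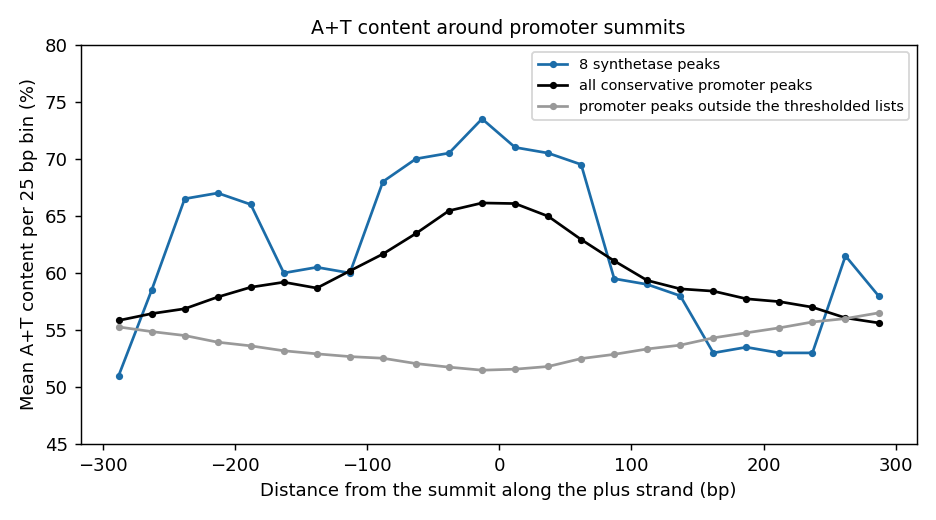
Mean A+T content in percent per 25 bp bin against the distance from the summit along the plus strand, for the strongest peak of the 8 synthetase genes (blue), all 1936 conservative promoter peaks (black) and 15328 ranked promoter peaks outside the thresholded lists (grey). The blue line reaches 73.5% just before the summit, where the black line is at 66.1% and the grey line at 51.5%. With 8 peaks, each blue point rests on few bases.

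The A+T content of the promoters as a whole differed less between members with and without a peak. The 250 bp before the gene start held a median of 66.6% A+T in the 8 members with a peak and 65.2% in the 25 members without one. The 8 include AspRS, at 54%, whose peak lies at an internal start site and not at the gene start used here. Over all protein-coding genes the medians were 64.4% with a conservative promoter peak and 62.4% without. Runs of 8 or more A and T bases did not separate these promoters. Such a run lay in all 8 members with a peak and in all 25 without one. The median longest run was 11.5 bp with a peak and 15 bp without. Over all protein-coding genes such a run lay in 93.0% with a peak and 87.9% without. The promoter richest in A+T among the members was that of ValRS, at 82.8%, which had no thresholded peak. The ArgRS-m promoter, at 51.6%, was near the lower end and had one.

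GluProRS, the bifunctional glutamate and proline enzyme, had the strongest peak of the synthetase genes. The signal of a peak is a value that the authors' peak caller assigned on an unstated scale, and it serves only to rank peaks within a list. The GluProRS peak had a signal of 673 and rank 220 of 3718 in the conservative list. Its signal was 357 in the thresholded list of replicate 1 and 310 in that of replicate 2. The peak, at chr3R:23958360-23958693, had its summit 134 bp upstream of the GluProRS start site and 126 bp upstream of AP-1sigma, which encodes the small subunit of a clathrin adaptor and lies on the opposite strand. No exon was annotated at the summit. There were 175 conservative promoter peaks with a higher signal.

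ThrRS, the threonine enzyme, followed at rank 221 with nearly the same signal, 673 after rounding. Its signal was 309 in replicate 1 and 358 in replicate 2, so that it passed in both. The peak at chr2L:12103240-12103745 had its summit 297 bp upstream of ThrRS and 169 bp upstream of Patsas, a palmitoyltransferase gene on the opposite strand. A second peak of the same list, at chr2L:12103240-12103750, covered nearly the same region. It had a signal of 298, rank 764 and a summit 89 bp upstream of ThrRS. ThrRS was the only member with 2 conservative promoter peaks, which brought the number of listed peaks to 9. They are 2 summits of nearly the same region.

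SerRS, the serine enzyme, had a signal of 631 and rank 250. Its signal was 346 in replicate 1 and 290 in replicate 2. Its peak, at chr2L:3037222-3037543, was the only one whose summit lay in an annotated exon, 11 bp past the SerRS start site. CG17260 starts 19 bp away on the opposite strand, with start sites of the pair only 8 bp apart. The summit lay between that CG17260 start and a second, downstream SerRS start site, so it also counted as lying between divergent start sites.

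IleRS, the isoleucine enzyme, had a signal of 321 and rank 686. Its signal was 165 in replicate 1 and 154 in replicate 2. The peak at chr3L:22288414-22288577, at 164 bp the narrowest of the set, had its summit 167 bp upstream of IleRS and 303 bp upstream of Hem, which encodes a subunit of the WAVE actin regulator. Here the synthetase start site was the nearer one.

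AspRS, the aspartate enzyme, had the weakest peak of the cytosolic enzymes that passed, with a signal of 214 and rank 1162. Its signal was 88.2 in replicate 1 and 116 in replicate 2. The peak, at chr2R:12879883-12880298, had its summit 193 bp upstream of an internal AspRS start site, inside the span of the AspRS gene but in no exon. Nmda1 lies on the opposite strand within the same span, with start sites 293 bp and 435 bp from the summit on the side away from AspRS. A further Nmda1 start site 139 bp from the summit, on the AspRS side, was the nearest of any gene. When only the 5′ end of each gene was used, AspRS had no promoter peak. All 5 cytosolic members with a conservative peak passed in both replicates, and all 5 had a signal above the median of conservative promoter peaks, 173. The share of all genes with a conservative peak that also passed in each replicate was not computed.

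The 3 mitochondrial members had lower conservative signals than all 5 cytosolic ones, and only 1 of them passed in a replicate on its own. ArgRS-m, the mitochondrial arginine enzyme, had a signal of 113 and rank 2434. Its peak in replicate 1 had a signal of 49.4 and did not pass, at a −log10 IDR of 0.888, while that in replicate 2 passed with a signal of 65.3. The IDR is the irreproducible discovery rate, and a −log10 IDR of 2 was the threshold found in the deposited lists. The peak at chr3R:7886689-7887104 had its summit 148 bp upstream of ArgRS-m and 164 bp upstream of CG17816 on the opposite strand.

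ProRS-m, the mitochondrial proline enzyme, had a signal of 106 and rank 2573. It was ranked in both replicates, with a signal of 38.4 in replicate 1 and 63.2 in replicate 2, but its −log10 IDR of 1.72 in replicate 1 and 1.63 in replicate 2 fell short of the threshold in each. The peak at chr3L:2651806-2652221 had its summit 164 bp upstream of ProRS-m and 74 bp upstream of the shared start of CG42304 and Snup, the snurportin gene that serves the import of spliceosomal RNAs. CysRS-m, the mitochondrial cysteine enzyme, had a signal of 94.1 and rank 2869, the lowest of the members. Its signal was 48.8 in replicate 1 and 44.2 in replicate 2, and it passed in neither, at a −log10 IDR of 0.0802 in replicate 1 and 1.69 in replicate 2. The peak at chr2R:14161179-14161594 had its summit 125 bp upstream of CysRS-m and 43 bp upstream of O-fut1, which encodes the enzyme that adds fucose to Notch. None of the 3 mitochondrial peaks passed in replicate 1, and none reached the median signal of conservative promoter peaks. With the lower signals all on the mitochondrial side, compartment and signal cannot be told apart in these counts.

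**Figure D2:**
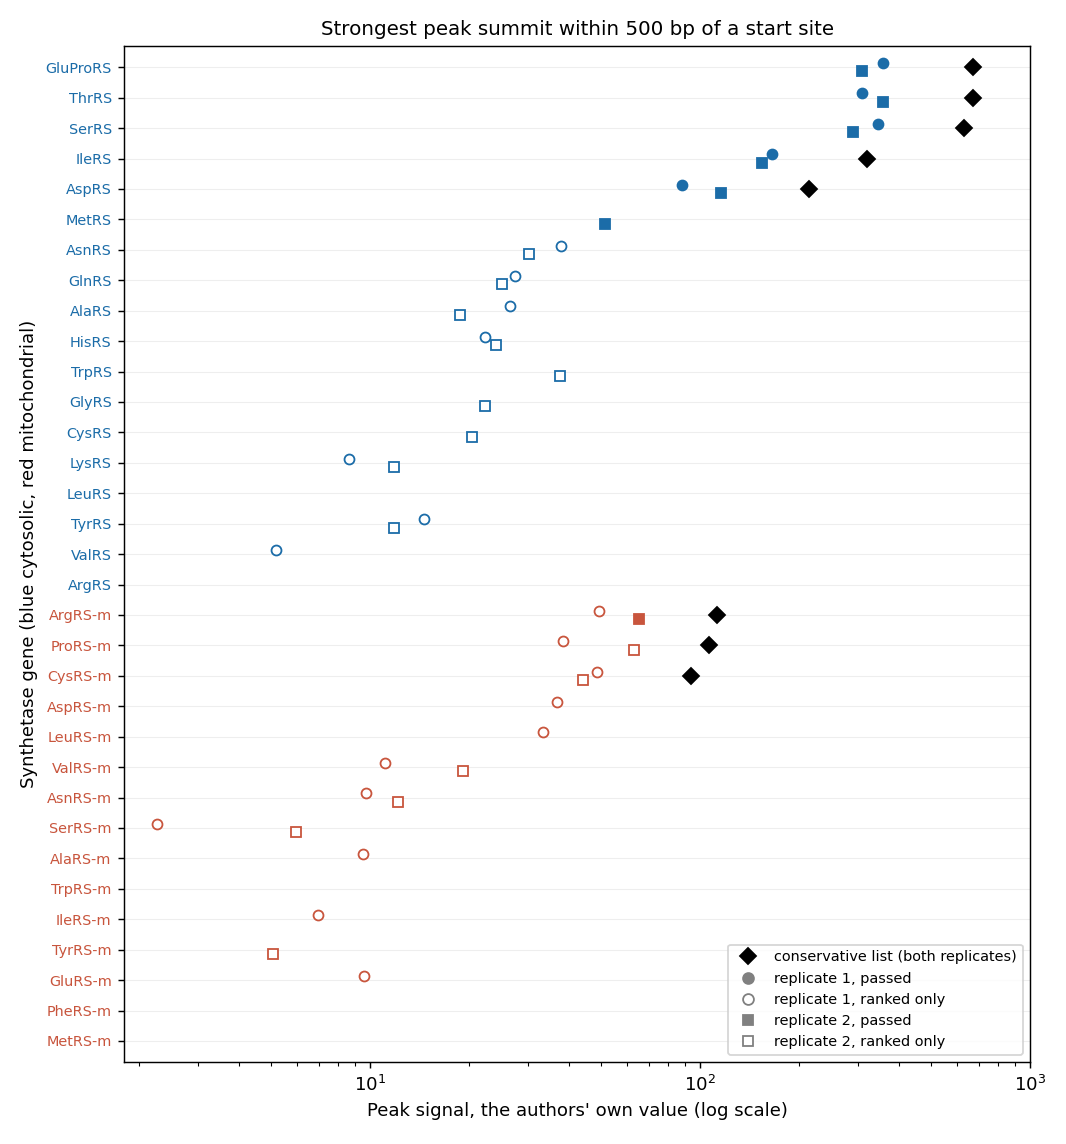
Signal of the strongest peak within 500 bp of a start site for each of the 33 synthetase genes, on a log axis in the authors' own units, with cytosolic enzymes in blue above mitochondrial enzymes in red. Diamonds are the conservative list, circles replicate 1 and squares replicate 2, filled where the peak passed the threshold of that replicate's list; a gene with no mark was in none of these lists. The scaling of the lists is not given, so distances between marks of different kinds are not a measurement. The 5 cytosolic diamonds lie between 214 and 673 and the 3 mitochondrial ones between 94.1 and 113.

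The peaks themselves differed in shape as deposited. Those of AspRS, ArgRS-m, ProRS-m and CysRS-m had a width of 416 bp, which was that of 70.1% of conservative peaks and places the summit at the centre. For these 4 genes the summit is the midpoint of a window of the commonest width. The peaks of GluProRS, SerRS and IleRS were narrower, at 334, 322 and 164 bp, and the stronger ThrRS peak was wider, at 506 bp.

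The lists of the single replicates held the cytosolic peaks and few of the mitochondrial ones. In the thresholded list of replicate 1, 5 of 33 members had a promoter peak, or 15.2% (6.65 to 30.9%), against 16.1% of all protein-coding genes. These were the same 5 cytosolic genes, and 0 of 15 mitochondrial genes passed, which allows a share of up to 20.4% by the Wilson interval. In the list of replicate 2, 7 of 33 passed, or 21.2% (10.7 to 37.8%), against 14.5% of all genes. They comprised 6 of 18 cytosolic genes, or 33.3% (16.3 to 56.3%), and ArgRS-m as 1 of 15 mitochondrial genes, or 6.67% (1.19 to 29.8%). The sixth cytosolic gene was MetRS, the methionine enzyme. Its peak 146 bp upstream had a signal of 51.6 and rank 2382 of 2624 in replicate 2, with a score of 858, and no ranked peak lay within its window in replicate 1. In the replicate-based ranked list MetRS had a signal of 73.1 and a −log10 IDR of 0.624. The other thresholded list of the series held the same 8 members as the conservative list, against 18.1% of all genes.

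In the conservative list, 5 of 18 cytosolic enzymes had a promoter peak, or 27.8% (12.5 to 50.9%), and 3 of 15 mitochondrial enzymes, or 20% (7.05 to 45.2%). The intervals of the 2 groups overlapped over most of their range, and both held the 17.3% of all protein-coding genes. A difference between the compartments in the share of genes with a peak was not detectable with 18 and 15 genes. In the conservative list the signals of the 2 groups did not overlap, over 5 and 3 genes and with no test. The lowest cytosolic value was 214 and the highest mitochondrial value 113. How often 5 and 3 promoter peaks of the list would separate in this way was not computed. All 8 peaks lay between divergent start sites, with the synthetase start site the nearest in 3, so the signals need not belong to the synthetase genes.

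**Figure D3:**
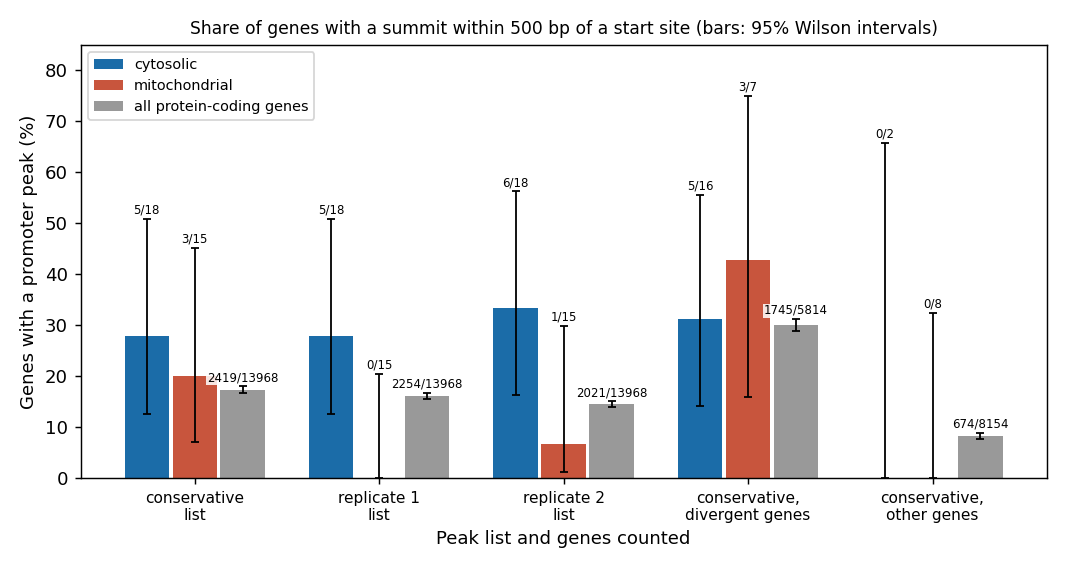
Percent of genes with a summit within 500 bp of a start site, for cytosolic synthetases (blue), mitochondrial synthetases (red) and all protein-coding genes (grey), by peak list and, for the conservative list, by whether the gene has a divergent neighbour. Bars are shares, black lines are 95% Wilson intervals and the labels give the counts. In the list of replicate 1, 5 of 18 cytosolic and 0 of 15 mitochondrial genes pass, against 16.1% of all protein-coding genes. In that of replicate 2, 6 of 18 and 1 of 15 pass, against 14.5%. The intervals of the 2 groups overlap in each list, and no test was run.

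Paired by amino acid, 14 amino acids had a member of each kind. Only for proline did both genes have a conservative promoter peak, through GluProRS and ProRS-m. For aspartate, glutamate, isoleucine and serine the cytosolic gene alone had one, and for arginine and cysteine the mitochondrial gene alone. For the remaining 7 amino acids neither gene had one. Of the 7 amino acids with a peak at either gene, 1 had a peak at both. The share of all protein-coding genes with such a peak was 17.3%. The overlap of unrelated pairs was not computed, so these counts do not show that paired genes share or avoid peaks. GluProRS counts under both of its amino acids here.

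Among the 18 cytosolic enzymes, those that belong to the complex in mammals were compared with the others. A conservative promoter peak was present at 3 of the 8 complex enzymes (GluProRS, IleRS and AspRS), or 37.5% (13.7 to 69.4%). It was present at 2 of the 10 others (ThrRS and SerRS), or 20% (5.67 to 51.0%), against 17.3% of all protein-coding genes. In replicate 2 the counts were 4 of 8, with MetRS added (21.5 to 78.5%), and 2 of 10, against 14.5% of all genes. By the structural class of the catalytic domain, 3 of 8 class II enzymes (AspRS, SerRS and ThrRS) had a conservative peak, or 37.5% (13.7 to 69.4%), and 1 of 9 class I enzymes (IleRS), or 11.1% (1.99 to 43.5%), with GluProRS holding a domain of each class. All 4 intervals of the conservative list held the 17.3% of all genes, and with so few genes these counts are a description.

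All 33 members were also read in the ranked lists. In the replicate-based ranked list 23 of 33 members had a summit within the window, or 69.7% (52.7 to 82.6%), against 65.0% of all protein-coding genes. These were 13 of 18 cytosolic and 10 of 15 mitochondrial enzymes. In the ranked list of replicate 1 the counts were 12 of 18 cytosolic and 11 of 15 mitochondrial enzymes, against 63.0% of all genes. In that of replicate 2 they were 15 of 18 and 7 of 15, against 65.5% of all genes. A ranked peak in the window was thus common to synthetase genes and to genes at large.

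Of the 25 members without a conservative promoter peak, 15 were in the replicate-based ranked list, with a median signal of 39.0. That value takes the strongest peak in the window of each gene. The median over all peaks of that list, 22.4, covers single peaks anywhere in the genome, so the 2 are not alike. Of the 13 cytosolic members without a conservative peak, 8 were in that list, with signals between 5.22 (TyrRS) and 73.1 (MetRS). MetRS and AsnRS, the asparagine enzyme with a signal of 64.9 and a −log10 IDR of 1.56, were above the 95th percentile of that list, 63.3. GlnRS, AlaRS, HisRS, LysRS and LeuRS had signals of 62.9, 43.3, 39.0, 15.9 and 9.46. TrpRS, GlyRS, CysRS and ValRS had none in that list and a ranked peak only in another, and ArgRS had none in any list. Of the 12 mitochondrial ones, 7 were listed, with signals between 2.41 (GluRS-m) and 42.0 (AspRS-m). LeuRS-m, ValRS-m, AsnRS-m, SerRS-m and TrpRS-m were the other 5, and AlaRS-m, IleRS-m and TyrRS-m were ranked only elsewhere. MetRS-m and PheRS-m, like ArgRS, had no summit within the window in any of the 8 lists. The highest signal without a conservative peak, that of MetRS, lay below the lowest with one, that of CysRS-m at 94.1.

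The summits lay about as far upstream as those of promoter peaks in general. In the 8 members with a peak the median summit lay 156 bp upstream of the nearest own start site, against 142 bp upstream for the 2419 protein-coding genes with a conservative promoter peak. The summit was upstream in 7 of 8 members and in 90.3% of those genes. The synthetase start site was the nearest of any gene in 3 of 8 members, namely SerRS, IleRS and ArgRS-m, or 37.5% (13.7 to 69.4%). The own start site was the nearest in 68.9% of the coding genes with a peak. Of those genes 63.4% had their strongest peak between divergent start sites, against 8 of 8 members, and a share for such genes alone was not computed. In the other 5 members a neighbour's start site was nearer, though the second ThrRS peak was nearest to ThrRS itself.

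Neighbours on the opposite strand were more frequent at synthetase genes, chiefly the cytosolic ones, than at protein-coding genes at large, with no test. A gene was called divergent where a start site of another gene lay on the opposite strand within 1000 bp upstream of one of its own. This held for 23 of 33 synthetase genes, or 69.7% (52.7 to 82.6%), against 41.6% of all protein-coding genes, a share below that interval. It held for 16 of 18 cytosolic enzymes, with only AlaRS and CysRS without such a neighbour. Among mitochondrial enzymes it held for 7 of 15, a share close to the 41.6% of all protein-coding genes.

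All 8 member peaks lay between divergent start sites. This was the case for 63.4% of the coding genes with a conservative promoter peak and for 44.9% of the 1936 promoter peaks, and the Wilson interval for 8 of 8 runs from 67.6 to 100%. Among divergent genes, 8 of 23 members had a peak, or 34.8% (18.8 to 55.1%), against 30.0% of all divergent protein-coding genes. By compartment these were 5 of 16 cytosolic members, or 31.3% (14.2 to 55.6%), and 3 of 7 mitochondrial members, or 42.9% (15.8 to 75.0%). Among genes without such a neighbour, 0 of 10 members had a peak, which allows a share of up to 27.8%, against 8.27% of all such genes. Within divergent genes and within the others, the members' shares were near those of all genes of the same kind.

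The distance to the neighbour overlapped between members with a peak and those without. The smallest gap to any divergent start site was 8 to 470 bp with a median of 249 bp in the 8 divergent members with a peak. It was 35 to 561 bp with a median of 216 bp in the 15 without. This gap need not be that of the start sites around the peak. For AspRS it was 38 bp, to Lfg, while the peak lay between start sites of AspRS and Nmda1. For SerRS it was 8 bp, and the summit lay outside that pair of start sites. MetRS, with a gap of 245 bp to CG15084, GlnRS, with 123 bp to RIOK2, and LeuRS, with 216 bp to CG17593, had gaps in the same range and no conservative peak. Because every one of the 8 peaks lies at a pair of start sites, the lists alone do not assign any of them to the synthetase gene rather than to its neighbour.

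**Figure D4:**
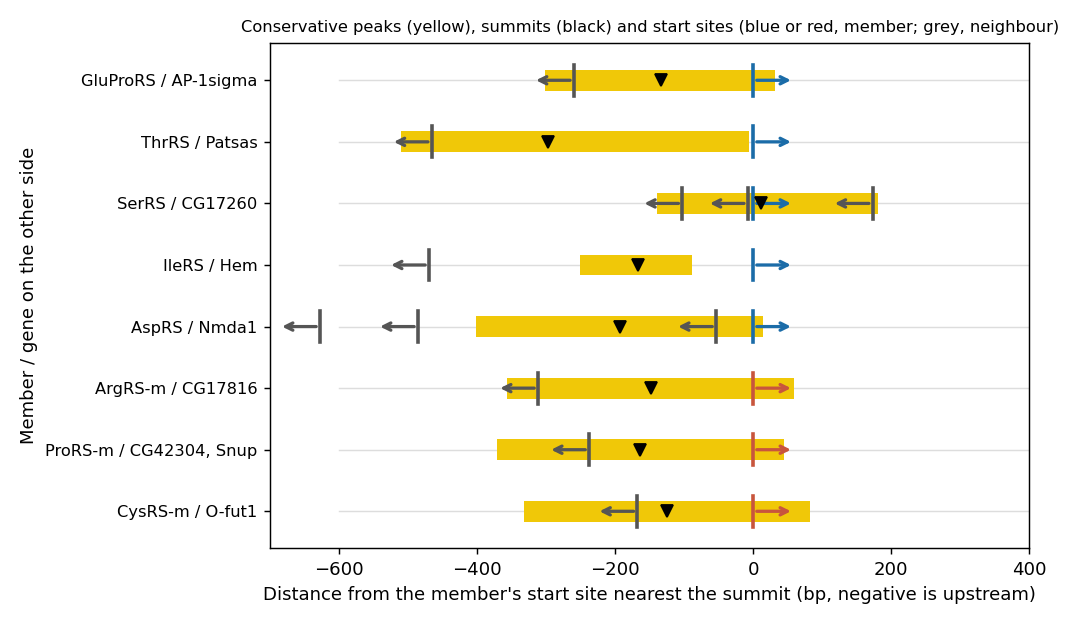
Maps of the 8 conservative peaks (yellow bars) with their summits (black triangles), drawn to scale in bp from the synthetase start site nearest to the summit, which points right (blue for cytosolic, red for mitochondrial enzymes). Grey arrows are start sites of the neighbouring gene named on the left, and the weaker of the ThrRS peaks and further start sites of the synthetase gene are not drawn. In 7 of 8 maps the summit lies left of the synthetase start, and in all maps a neighbour points the opposite way.

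Words of known promoter elements were searched on both strands. In the 8 windows of 101 bp around the summits, the TATA box word TATAAA was found in 3 (SerRS, ProRS-m and CysRS-m), against 22.2% of the conservative promoter windows. The other 6 words searched had no match in these 8 windows. They were TATCGATA, the DNA replication-related element; CACGTG, the E-box; GGTCACAC, the core of the element bound by M1BP; GAGAGAG, the GAGA repeat; CGATA, a word bound by BEAF-32 that is also contained in the first word; and TTGCATCA, a word of the site shared by ATF4 and C/EBP factors. The windows are short, and CGATA, the most frequent of these 6 words, was in 20.8% of the conservative promoter windows.

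In the promoters of all 33 members, taken as 250 bp before to 50 bp after the gene start, CGATA was found in 21, or 63.6%, against 47.3% of all protein-coding promoters. TATAAA was found in 18, or 54.5%, against 45.8%. TATCGATA was found in 5 (AlaRS, ArgRS, IleRS, PheRS-m and TrpRS), or 15.2% against 9.36%, and GGTCACAC in 4, or 12.1% against 7.69%. TTGCATCA, the word related to the amino acid response, was in none of the 33 promoters and in 0.816% of all. Of the 5 members with TATCGATA only IleRS had a conservative peak.

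Some synthetase genes had a thresholded peak nearby that belonged to no start site of theirs. The strongest within 2000 bp of a member's ends lay past the 3′ end of AlaRS, with a conservative signal of 1472, and its nearest start site was that of CG13390 at 83 bp. The next lay past the 3′ end of CysRS-m, with a signal of 1003 and the start of CG13018 at 129 bp. A peak with a signal of 647 lay 895 bp upstream of LeuRS-m, where the nearest start site, of the dynein heavy chain gene Dhc64C, was 729 bp away. AlaRS had a further peak 1067 bp upstream, with a signal of 120 and the start of CG13392 at 24 bp. AsnRS had one 1795 bp upstream, with a signal of 160 at brat. GlnRS and GlyRS had peaks past their 3′ ends, with signals of 156 and 89.9. Apart from the LeuRS-m and GlyRS ones, each of these summits lay within 500 bp of the start site of another gene.

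The genes that work with the synthetases were read in the same way. Of 10 accessory factors, 3 had a conservative promoter peak, or 30.0% (10.8 to 60.3%), against the same 17.3% of all protein-coding genes. GatA, a subunit of the amidotransferase that makes mitochondrial glutaminyl-tRNA, had a signal of 220 at a peak shared with P5cr, and GatC, another subunit, had 111 at a peak shared with PolG2 and Polr2C. beta-PheRS, a subunit of the cytosolic phenylalanine enzyme that the naming rule does not take, had 134, while its partner alpha-PheRS had none. In the list of replicate 2 alone only GatA of these 3 passed. The count there was 1 of 10, against 14.5% of all protein-coding genes. The scaffold genes AIMP1, AIMP2 and AIMP3 had none in the conservative list.

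Of 21 genes of tRNA processing and modification, 4 had a conservative promoter peak, or 19.0% (7.67 to 40.0%). Among them were Tcs5, of the complex that makes the threonylcarbamoyl modification, with a signal of 2273, RNaseZ, which trims the 3′ ends of tRNA precursors, with 214, and La, which binds the ends of new RNA polymerase III transcripts, with 121. The Tcs5 peak was shared with CHMP2B, that of RNaseZ with CG12909 and that of La with RtGEF among others. La passed in neither replicate on its own. Of 11 genes of the amino acid response, 2 had one, or 18.2% (5.14 to 47.7%). They were Atf3, with a signal of 1711, and Sesn, the sestrin gene, with 858 at a peak shared with CG46429. Neither crc nor Gcn2, the kinase that senses uncharged tRNA, had a promoter peak. The peaks of Tcs5, Atf3 and Sesn had higher signals than that of any synthetase gene, though the shared peaks need not belong to these genes. The shares of these 3 groups had intervals that held the 17.3% of all genes.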

How the data were processed

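Peaks of 2 biological replicates were analysed on dm6. Per the deposited text files, the authors made 8 peak lists by comparing ranked peaks with the irreproducible discovery rate (IDR), 4 ranked and 4 thresholded. The deposited signal is the value of the authors' peak caller, the deposited score is a whole number of at most 1000 derived from the IDR, and the −log10 IDR of each ranked peak is a deposited column. Thresholded peaks had a −log10 IDR of at least 2. The conservative list was read as the comparison of both replicates because most source peaks of its ranked list were found in the lists of the replicates (83691 of 100536 and 88058 of 102843). The names and versions of the aligner and peak caller were not given in the sources used here. As the lists hold no reads, the depth of the libraries is unknown. The 2 libraries form 1 group, with no condition to compare.

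Summits were placed at the deposited peak start plus offset and set against start sites of Ensembl release 115 (BDGP 6.54), with sequence from the RefSeq copy of Release 6. Python 3.11.15, numpy 2.4.6, pandas 2.3.3, scipy 1.17.1 and matplotlib 3.10.9 were used. Wilson 95% intervals cover the sampling of genes only, and no test was run, since genes are not replicates. The distance search, the divergent pairs and the intervals were tested on simulated data. Every member is accounted for, those with a conservative peak each by value, those passing in another thresholded list by those values, and the rest by ranges and, where over the 95th percentile of the ranked list, by value. Further ranked values of members were named after they were seen. Of each other list, up to 4 genes with the highest signal are named, and other absences were named after their values were seen. The members and lists were chosen with earlier results of these data known, and the grouping by complex and class was written after the values were seen. In the other lists, 1 tRNA processing gene and 1 amino acid response gene were not matched, and 1 gene of the other lists is not reported here by name. Alternatives covered the window, the list, the replicates, the threshold, the start sites and the assignment to the nearest start.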

Additional observations from a re-analysis of the deposited data

How the results depend on the processing

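No paired analysis was possible because the experiment has a single group of 2 replicates. Of the count of members with a promoter peak, 8, the lists of single replicates gave 5 to 7, the upper 50% of conservative peaks by signal gave 5, and counting a peak only for the nearest start site gave 4. The cytosolic count, 5, was 5 to 6 in single replicates and 3 with the nearest start site alone. The mitochondrial count, 3, was 0 to 1 in single replicates, 0 in the upper 50% by signal and 1 with the nearest start site alone. The count of accessory factors, 3, was 1 to 3 in single replicates, with 1 in the list of replicate 2 alone. The cause of these shifts was not tested, except where a rule acts by its construction. The nearest-start rule drops every peak closer to a neighbour. The upper 50% drops every peak below the median signal of the list, 146, and the 3 mitochondrial peaks lay below it. The windows of 250 and 1000 bp, the other thresholded list, the reproducible ranked peaks and the 5′ end of the gene alone gave 7 to 9 members. With 1000 bp LeuRS-m was added. Members passing in both replicates numbered 5, and 4 where the peaks had to overlap by 50% in both directions. The shares of all protein-coding genes were 16.1% in the list of replicate 1 and 14.5% in that of replicate 2. For the upper 50%, the nearest start and both replicates no such share is given. A loss particular to the members therefore cannot be told from a general one there. Divergent members numbered 23, 21 with a gap of 500 bp and 23 with protein-coding neighbours alone, both alternatives added after seeing the data. The unknown depth limits what the absence of a peak can mean.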

Other observations

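Peaks near synthetase genes that passed in some lists alone were not used in any comparison. A peak with a signal of 38.6 lay near the 3′ end of SerRS-m in the thresholded list of replicate 1, 52 bp from the start of Nagk, and the other series list held one of 84.8 past that end. A peak with a signal of 147 and rank 734 of 2624 lay past the 3′ end of AsnRS-m in the list of replicate 2 alone, 150 bp from the start of NiPp1.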
